A study of Homo sapiens with 6 samples.

Results

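RNA of 12Z cells given a control siRNA was measured in 3 libraries, of 6 in the whole series, and these 3 were chosen by that treatment label and by nothing measured in them. 12Z is an established human cell line whose labels call it endometriosis epithelial cells. In endometriosis, tissue like the lining of the uterus grows outside it. The cells, labelled p40, were kept in DMEM-F12 medium with penicillin, streptomycin and 10% fetal calf serum, were transfected with the control siRNA by the lipid reagent Lipofectamine RNAiMAX and were harvested 72 h later. They are therefore transfected cells in serum and not untreated ones. An siRNA is a short double-stranded RNA that directs the breakdown of matching transcripts. A control siRNA has no intended target in the cell. The other 3 libraries received an siRNA against the long non-coding RNA LINC01638, which stood at 7.40, 7.32 and 7.56 CPM in the control libraries, and were not compared here. All values come from 1 cell line, and the labels give the libraries the letters A, B and C without saying that they were separate cultures, so the spread between them may be technical.

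Epithelial cells line surfaces and glands, are joined by E-cadherin junctions and carry keratin filaments. Mesenchymal cells, such as fibroblasts, carry vimentin filaments instead, lay down a collagen matrix and use N-cadherin. In epithelial-to-mesenchymal transition (EMT) an epithelial cell takes on features of the mesenchymal kind, driven in part by the SNAIL, ZEB and TWIST families of transcription factors. Lesions of endometriosis hold gland epithelium and stroma, often grow on the peritoneum and respond to the ovarian steroids through nuclear receptors. The peritoneum is covered by mesothelium, a sheet of mesoderm-derived cells that normally carry keratins and vimentin together and use the transcription factor WT1.

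Replicates A, B and C held 55031286, 45617234 and 54775330 fragments counted on genes. Levels are given as counts per 1000000 of that total (CPM), or as CPM per kilobase (kb) of annotated exon where genes are compared with each other, since a long gene collects more reads than a short gene at the same number of RNA molecules. Values after ± are the SD over the 3 libraries (n = 3). Of 62696 genes listed, 13186 reached 1 CPM in all 3 libraries, among them 11879 protein-coding genes and 777 long non-coding RNAs. A gene was taken as not detected where it had at most 3 counts in each library, which is 0.0545 to 0.0658 CPM and covers counting error only. Protein-coding genes, of which 19865 were listed, had a median of 7.42 CPM. Of these, 11.9% reached a mean of 100 CPM, 47.5% reached 10 CPM and 60.5% reached 1 CPM, while 26.2% were not detected. These shares are the background against which the counts of each gene group below can be read. Protein-coding genes took 93.0% ± 0.344 of the counts, small and other RNAs 4.48% ± 0.187, the mitochondrial genome 1.47% ± 0.148 and long non-coding RNAs 0.819% ± 0.0424.

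The 6 genes named as marks of these cells, which belong to both the epithelial and the mesenchymal side, all exceeded 100 CPM in every library. SPARC (ENSG00000113140.11, chromosome 5, 151661096 to 151687165, minus strand, on GRCh38 as are all gene positions below), a collagen-binding glycoprotein, stood at 3587, 4141 and 4155 CPM in replicates A, B and C, or 819.9 ± 67.0 CPM per kb. KRT19 (ENSG00000171345.13, chromosome 17, 41523617 to 41528308, minus strand), the smallest keratin of simple epithelia, stood at 1419, 1391 and 1305 CPM (587 ± 25.5 CPM per kb). VIM (ENSG00000026025.16, chromosome 10, 17228259 to 17237593, plus strand), the vimentin filament of mesenchymal cells, stood at 2299, 2234 and 2164 CPM (433 ± 13.1 CPM per kb). The keratin and the vimentin were thus less than 1.5-fold apart per kb in the same libraries, though VIM is listed at 633 CPM where fragments are counted without regard to strand. COL3A1 (ENSG00000168542.16, chromosome 2, 188974320 to 189012746, plus strand), the chain of fibrillar collagen III, stood at 2005, 2494 and 2413 CPM (338 ± 38.5 CPM per kb). AXL (ENSG00000167601.12, chromosome 19, 41219203 to 41261766, plus strand), a receptor tyrosine kinase for the ligand GAS6, stood at 876, 981 and 918 CPM (179 ± 10.3 CPM per kb). WT1 (ENSG00000184937.16, chromosome 11, 32387775 to 32435630, minus strand), a zinc finger transcription factor of mesothelium, kidney and gonad, stood at 168, 163 and 168 CPM (40.4 ± 0.684 CPM per kb). Per kb the order was SPARC, KRT19, VIM, COL3A1, AXL and WT1, and no neighbours in that order overlapped between libraries. The place of KRT19 rests on the total exon length used, since by CPM both VIM and COL3A1 stood above it in every library. For SPARC and COL3A1, replicate A was below both others, whereas WT1 spanned less than 6 CPM.

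The genes of highest CPM were housekeeping, cytoskeletal and matrix genes. RN7SL1, the RNA of the signal recognition particle, alone held 3.79% ± 0.192 of all counts (37859 ± 1915 CPM), and RMRP, an RNA of the endonuclease RNase MRP, stood at 5398 ± 221 CPM. Both share all their exon bases with another annotated gene on the same strand, so their values are uncertain. Among protein-coding genes the highest were the actins ACTB (9096 ± 505 CPM) and ACTG1 (4774 ± 170.0 CPM) and the glycolytic enzyme gene GAPDH (4411 ± 168 CPM, or 2299 without regard to strand). They were followed by COL1A1 (3859, 4612 and 4519.8 CPM), the α1 chain of type I collagen, by SPARC, by the elongation factor EEF2 (3045 ± 57.1 CPM) and by the actin crosslinker FLNA (2942 ± 199 CPM). The rest of the 20 highest were MT-CO1, the myosin gene MYH9 (2886 CPM), the secreted glycoprotein gene FSTL1 (2804), EEF1A1, ENO1, KRT8 (2512), AHNAK, TUBB, PKM, MT-ND4 and COL3A1. Together the 50 highest genes held 14.9% ± 0.128 of the counts, and the 1000 highest 49.5% ± 0.158.

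Per kb, where short genes are not penalised, the highest protein-coding genes were TMSB10, which encodes the actin monomer-binding thymosin β10 (4054 ± 258 CPM per kb), ACTB (2585 ± 144 CPM per kb), ACTG1, GAPDH and the ferritin light chain FTL (1406 ± 91.9 CPM per kb). Histone genes came next: the linker histones H1-5 (1351 ± 85.3 CPM per kb), H1-2 (1256) and H1-4 (1083), and the core histones H2BC12 (1043), H4C4 (924) and H4C3 (682). Most mRNAs of these histone genes lack a poly(A) tail, so they are counted in libraries made by removing ribosomal RNA. SPARC was the matrix gene among the 15 highest. NPPB, which encodes the natriuretic peptide B known from heart muscle, was the last of the 15 at 473, 451 and 475 CPM (672 ± 19.3 CPM per kb). This order depends on the length used. With the longest annotated transcript in place of the total exon length, TMSB10 (4054) and ACTB (4052) stood alike. By that length ENO1 (1009), KRT8 (878) and PKM (809) exceeded H4C3 and NPPB. The tables list 0 fragments that mapped to several places, so genes with near-identical copies, histone, actin, EEF1A1 and TUBB genes among them, may be undercounted.

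A TATA box, the sequence TATAAA about 30 bases before the start of a gene, is 1 way in which a promoter can place the transcription start, whereas promoters rich in CG pairs usually lack it. Promoters of 15337 of the protein-coding genes were found in RefSeq (GRCh38.p14), and TATAAA was searched on the gene's own strand from 45 to 16 bases before the RefSeq start, which may not be the start used in these cells. It was found in 3.75% of all promoters of this window. The sequences below show abundant genes of the text, chosen after their levels and windows were seen, first 5 with TATAAA, in capitals, and then 5 without it.
THBS2, chr6:169253862-169253891 (minus strand): cacaggagaagcggcaTATAAAgccgcgct
P4HB, chr17:81860551-81860580 (minus strand): gccccggacccaggattTATAAAggcgagg
IGFBP4, chr17:40443405-40443434 (plus strand): tgtggccagggaccggTATAAAgtccgggg
CCN2, chr6:131951388-131951417 (minus strand): gccgcccggagcgTATAAAagcctcgggcc
COL6A2, chr21:46098067-46098096 (plus strand): cggcggggcggggTATAAAgggggcggcgc
SPARC, chr5:151686931-151686960 (minus strand): tcctgttgcctgtctctaaacccctccaca
VIM, chr10:17228196-17228225 (plus strand): ggcggggactctgcaagaaaaaccttcccg
AXL, chr19:41219178-41219207 (plus strand): aagggttgcccaagtctgggagtgagggaa
WT1, chr11:32435555-32435584 (minus strand): gccgccggcccctcttatttgagctttggg
KRT8, chr12:52926485-52926514 (minus strand): tgactggggcaggctttgtggggaggtgcc
All are written 5′ to 3′ along the gene. THBS2, an anti-angiogenic thrombospondin, stood at 2163 ± 279 CPM, P4HB, a subunit of collagen prolyl hydroxylase, at 1287 ± 109 CPM, and IGFBP4, a binding protein of insulin-like growth factors, at 475 ± 7.86 CPM. The box was found in 3.75% of promoters of genes at 100 CPM or more, 0.955% at 10 to 100 CPM, 1.51% at 1 to 10 CPM, 4.86% under 1 CPM and 8.93% of genes not detected. At 100 CPM or more, 22 of 36 histone promoters held TATAAA (61.1%), and so did 52 of 1936 others (2.69%). GGGCGG, the GC box bound by SP1, searched on both strands over the 250 bases before the start, was found in 73.2% of promoters at 100 CPM or more and in 27.2% of those of genes not detected, against 56.7% of all. The median number of CG pairs in the same 250 bases was 23 and 4 in those groups. These letters describe the windows and not whether any factor binds there.

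The labelled cell type was checked against markers of epithelium and of the other cells that a lesion or a culture from one could hold. Simple-epithelial keratins were high, but most other epithelial markers were low or not detected: 8 of 23 reached 10 CPM and 12 were under 1 CPM, 5 of them not detected. KRT8, KRT18 and KRT19 held 95.3% of the summed level of the list (5429 ± 213 CPM). The junction genes JUP (plakoglobin, 88.4 ± 1.54 CPM) and OCLN (occludin, 36.1 ± 3.22 CPM) were present. E-cadherin (CDH1) stood at 6.98, 8.22 and 8.34 CPM, the epithelial adhesion molecule EPCAM at 0.345, 0.307 and 0.438 CPM and the desmosome gene DSP at 0.0909, 0.219 and 0.292 CPM. ESRP1, a splicing factor of epithelia, and the epithelial transcription factor genes GRHL2 and OVOL2 had no count in any library, and OVOL1 and RAB25 were not detected. ESRP2, the paralogue of ESRP1, stood at 2.32 ± 0.0681 CPM. The data thus go with the epithelial label for keratins and against it for EPCAM, DSP and these regulators. In bulk RNA, a gene low in every cell and a gene high in few cells cannot be told apart.

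Markers of endometrial glands were mostly low, while most of those of stroma and of mesothelium reached 10 CPM. Of all protein-coding genes 47.5% did so, and the shares of stroma and mesothelium markers were not far above that. Of 15 gland markers, MUC1, a surface mucin, was the only member at 10 CPM or more (20.6 ± 0.817 CPM). PAX8, a transcription factor of the female tract epithelium, stood at 3.34, 3.20 and 3.8 CPM and SOX17 at 1.22, 1.34 and 1.44 CPM, and FOXA2, the gland-defining forkhead factor, had no count. Of 20 stroma markers, 12 reached 10 CPM, with THY1 (CD90, 393 ± 20.4 CPM, or 236 without regard to strand), LUM (lumican, 133 ± 10.1 CPM), HAND2, a progesterone-responsive stromal factor (77.1 ± 1.04 CPM), HOXA11 (31.8 ± 2.51 CPM) and MME (CD10, 34.8 ± 2.59 CPM) among them. Of the other stroma markers, PDGFRA, SUSD2, FOXO1 and COL6A3 stood at 1 to 10 CPM, and TCF21 (0.0949 CPM) and HOXD10 (0.373 CPM) under 1 CPM. IGFBP1 and PRL, the products of decidualised stroma, were not detected. Of 15 mesothelial markers, 9 reached 10 CPM. LRRN4, a leucine-rich repeat surface protein, stood at 351, 432 and 403 CPM, MSLN (mesothelin) at 36.0, 41.8 and 40.7 CPM, CALB2 (calretinin) at 27.8, 26.5 and 25.6 CPM and UPK3B (uroplakin 3B) at 8.67, 9.93 and 7.01 CPM. BNC1, a zinc finger factor of mesothelium and keratinocytes, stood at 122 ± 2.59 CPM, and PDPN (podoplanin) at 60.5 ± 3.97 CPM. The defining mesothelial genes were thus all above 5 CPM in every library. In the same list, ITLN1 (0.208 CPM) and HP (0.0498 CPM) were under 1 CPM, and KRT5, PRG4 and GATA4 were not detected.

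The defining markers of other cell types were low or not detected, while some other members of their lists were present. At 10 CPM or more stood 1 of 12 immune, 2 of 10 endothelial, 3 of 9 smooth muscle, 1 of 8 neural and 0 of 7 ciliated markers, and at 1 CPM or more stood 1, 3, 6, 4 and 3 of them. Of the neural list, SNAP25 (8.04 ± 0.485 CPM), SYT1 (2.75 ± 0.528 CPM) and TUBB3 (2.20 ± 0.127 CPM) were in the second group. The pan-leukocyte gene PTPRC (CD45) stood at 0.164, 0.395 and 0.365 CPM and CD3E of T cells had no count, but CD14, a co-receptor for bacterial lipopolysaccharide, stood at 44.7, 50.7 and 46.2 CPM. Endothelial PECAM1 was at 0.109, 0.0438 and 0.0913 CPM and CDH5 at 0.945, 1.10 and 0.986 CPM, beside the receptor tyrosine kinase genes TIE1 (13 ± 2.17 CPM) and KDR (11.8 ± 1.5 CPM). Smooth muscle DES (desmin) was at 0.135 ± 0.00926 CPM and MYH11 at 0.0438 ± 0.0412 CPM, whereas MYLK, the myosin light chain kinase also used outside muscle, was at 429 ± 13.2 CPM. The neural member above 10 CPM was MBP (41.1 ± 1.86 CPM), the myelin basic protein, whose locus is also used outside the brain. RBFOX3 of neurons and ALB of hepatocytes had no count, HBB of red cells was not detected, and FOXJ1 of ciliated cells was at 0.0899 ± 0.0363 CPM.

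**Figure D1:**
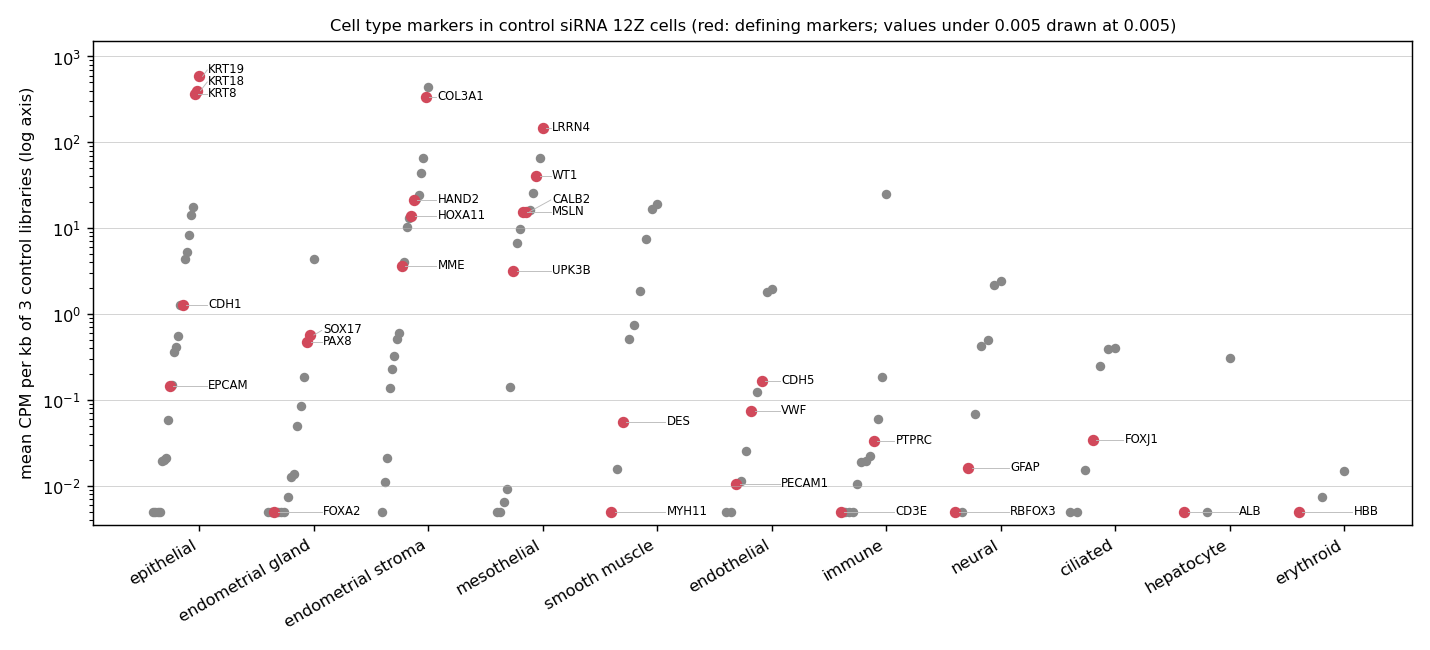
Mean level (CPM per kb of exon, log axis) of each marker in the 3 control libraries, 1 column of points for each cell type list, with the defining markers in red and named; values under 0.005 are drawn at 0.005. KRT19, KRT18 and KRT8 stand at 587, 400.4 and 365 while CDH1 and EPCAM lie at 1.27 and 0.144; the named mesothelial markers lie between 3.21 and 147, and the named immune, neural and hepatocyte markers lie under 0.1.

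Keratins are built in pairs of a type I and a type II chain, and these cells used few of them. Of 55 keratin genes, 37 were not detected, 9 reached 1 CPM and 6 reached 10 CPM, and KRT8, KRT18 and KRT19 held 97.9% of the summed keratin level. The type II keratin KRT8 stood at 2609, 2519 and 2408 CPM. Its usual type I partner KRT18 stood at 1344, 1289.6 and 1232 CPM, or a mean of 804 CPM without regard to strand. Per kb the ratio of KRT8 to KRT18 was 0.912 ± 0.00325, but it was 1.42 with the length of the longest transcript in place of the total exon length, so which of the pair is higher was not settled. KRT7 of gland ducts was next at 58.9 ± 4.74 CPM (14.4 CPM per kb, against 400.4 for KRT18), then KRT80 (32.3 ± 1.01 CPM) and the epidermal keratin KRT10 (13.1 ± 1.43 CPM). The basal keratin KRT5 was not detected, nor was KRT6A, and KRT14 (0.400, 0.614 and 0.438 CPM) and KRT17 (1.38, 1.05 and 1.39 CPM) were low. Of the other filament genes, the lamins LMNA (807 ± 32.2 CPM), LMNB2 (756 ± 27.4 CPM) and LMNB1 (271 ± 4.84 CPM) of the nuclear envelope followed VIM, while the muscle and glial filament genes DES and GFAP were under 0.5 CPM.

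Cell adhesion genes leaned to N-cadherin. CDH2 (N-cadherin) stood at 269, 305 and 303 CPM (59.0 ± 4.04 CPM per kb), and its level per kb was 46.5 ± 1.44 times that of CDH1. CDH4 (108 ± 9.50 CPM), the mesenchymal cadherin CDH11 (138 ± 14 CPM), the membrane-anchored CDH13 (61.7 ± 6.13 CPM) and the placental cadherin CDH3 (27.0 ± 2.52 CPM) lay between them. The pairs compared as ratios here and below were chosen after their levels were seen. Of 24 claudins, the sealing proteins of tight junctions, 3 reached 10 CPM and 10 were not detected. CLDN11, best known from myelin and Sertoli cells, stood at 373, 391 and 418 CPM (106 ± 6.14 CPM per kb), against 5.09 ± 0.234 CPM per kb for CLDN12 and 4.02 ± 0.247 CPM per kb for CLDN1. CLDN3, CLDN4 and CLDN7, common in gland epithelium, each stood under 1.1 CPM in every library.

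Matrix genes were among the most abundant genes of these cells. Of 44 collagen genes 16 reached 10 CPM, 11 of them 100 CPM, and 10 were not detected. The shares of all protein-coding genes were 47.5%, 11.9% and 26.2%. Collagens thus lay below the background at 10 CPM and above it at 100 CPM. Among fibrillar chains COL1A1 stood at 441 ± 41.8 CPM per kb, COL3A1 at 338 ± 38.5 CPM per kb, COL5A1 at 116 ± 13.2 CPM per kb and COL5A2 at 115 ± 11.5 CPM per kb. COL1A2, the α2 chain that joins a pair of α1 chains in ordinary type I collagen, stood far lower at 60.5, 68.7 and 74.9 CPM (6.10 ± 0.649 CPM per kb). COL1A1 thus stood 72.4 ± 3.86 times above COL1A2 per kb, or 56.7 times with the longest transcript as the length. COL5A1 and COL5A2, partners in type V collagen, had a ratio of 1.01 ± 0.0239, or 1.26 with the longest transcript as the length. The network collagen chains COL4A1 (35.8 ± 4.50 CPM per kb) and COL4A2 (55.7 ± 7.24 CPM per kb), which are transcribed from a shared promoter region in opposite directions, had a ratio of 0.642 ± 0.0102. In collagen VI, the beaded filament collagen, COL6A1 (59.6 ± 7.90 CPM per kb) and COL6A2 (58.6 ± 7.09 CPM per kb) had a ratio of 1.02 ± 0.0161, whereas COL6A3 stood at 5.42, 7.65 and 5.88 CPM and COL6A1 exceeded it 187 ± 15.8 times, or 128 times by the longest transcript. By the longest transcript the ratio was 0.824 for COL6A1 to COL6A2 and 0.481 for COL4A1 to COL4A2. The SD of these ratios does not cover the choice of length. Neither COL1A2 nor COL6A3 shares exon bases with another gene on its strand in the annotation used. COL12A1 (475 ± 70.2 CPM), which coats fibrils, and COL18A1 (359.7 ± 40.3 CPM), the source of endostatin, were also above 100 CPM.

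Basement membrane genes were led by the α5, β1 and γ1 chains of laminin. Laminins are trimers of an α, a β and a γ chain, and LAMC1 (γ1, 83.2 ± 11.6 CPM per kb), LAMB1 (β1, 54.4 ± 7.28 CPM per kb) and LAMA5 (α5, 43.3 ± 6.46 CPM per kb) were the highest of 12, with LAMB1 and LAMA5 overlapping between libraries. The ratio of LAMC1 to LAMB1 was 1.53 ± 0.0125 and that of LAMC1 to LAMA5 1.92 ± 0.0508, or 1.15 and 1.64 by the longest transcript. LAMB2 (28 ± 3.17 CPM per kb) followed, and LAMA4, LAMA1 and LAMA3 lay at 4.39, 4.33 and 3.04 CPM per kb, the first pair of these overlapping between libraries. LAMB3 (2.41 ± 0.171 CPM), which joins LAMA3 in the laminin of epithelial anchoring structures, was low. The linkers NID1 (nidogen, 201 ± 22.1 CPM), AGRN (agrin, 565 ± 61.7 CPM) and HSPG2 (perlecan, 657 ± 93.5 CPM) were present.

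**Figure D2:**
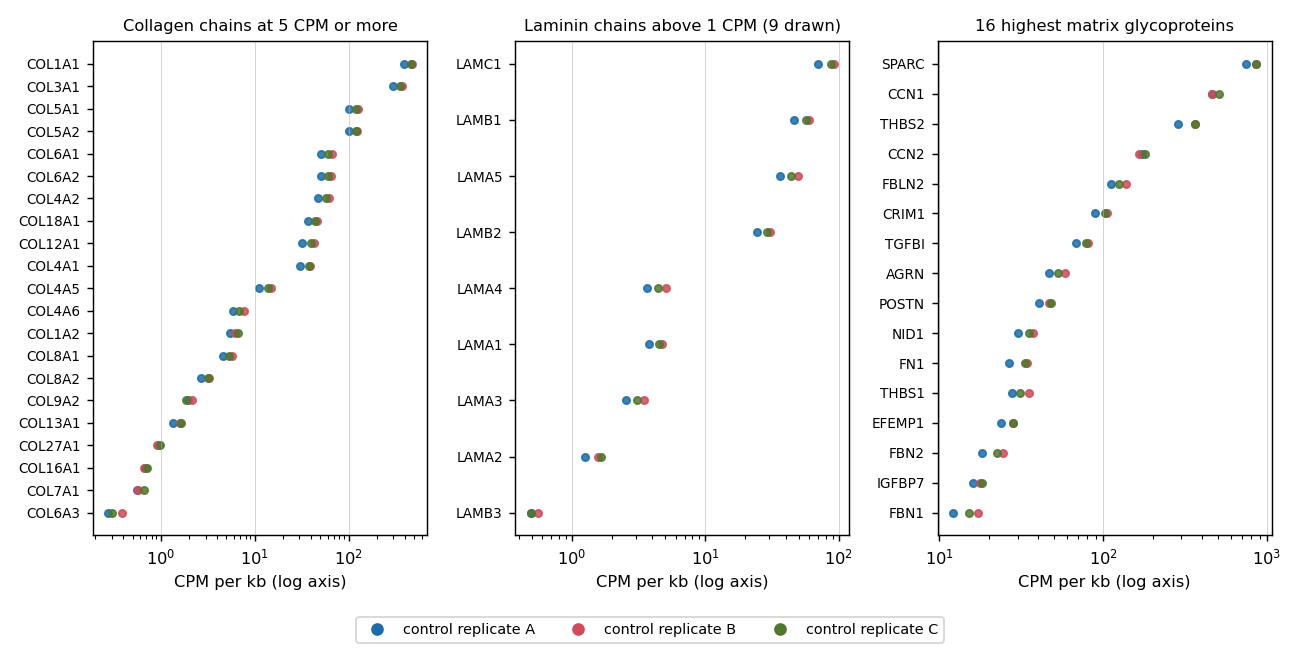
Level of collagen chains, laminin chains and the 16 highest matrix glycoprotein genes (CPM per kb of exon, log axes), 1 point for each control library; not every laminin chain is drawn. COL1A1 and COL1A2 stand at 441 and 6.10, and COL6A1 and COL6A3 at 59.6 and 0.322; replicate A is the lowest point for most genes shown.

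Of 34 matrix glycoprotein genes 27 reached 10 CPM. Below SPARC per kb stood the matricellular genes CCN1 (479 ± 26.6 CPM per kb), THBS2 (337 ± 43.6 CPM per kb) and CCN2 (173 ± 7.30 CPM per kb), the elastic fibre gene FBLN2 (124 ± 12.9 CPM per kb), CRIM1 (98.9 ± 8.74 CPM per kb) and TGFBI (75.9 ± 6.69 CPM per kb). FN1, fibronectin, stood at 458, 589.5 and 574 CPM (31.2 ± 4.14 CPM per kb), which overlapped between libraries with NID1 and THBS1 (thrombospondin 1, 31.2 ± 3.63 CPM per kb). POSTN (periostin, 246 ± 20.4 CPM) and the fibrillins FBN2 (286 ± 42.6 CPM) and FBN1 (239 ± 41.9 CPM) were present, whereas ELN (elastin) was not detected and MGP was at 0.0450 ± 0.0457 CPM. Among 18 proteoglycans SDC4 (75.9 ± 2.96 CPM per kb), LUM (44.2 ± 3.36 CPM per kb), SDC1 (41.4 ± 2.47 CPM per kb) and GPC1 (40.6 ± 2.61 CPM per kb) led, and the last 3 of these with HSPG2 (36.3 ± 5.16 CPM per kb) overlapped between libraries. VCAN (versican) stood at 1.57 ± 0.256 CPM and ACAN (aggrecan) had no count.

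Enzymes that modify and crosslink collagen were all present: 10 of 13 reached 10 CPM and none was under 1 CPM. The lysyl oxidase LOXL2 stood at 673, 849 and 807 CPM (136 ± 16.1 CPM per kb), against 36.6 ± 3.33 CPM per kb for LOX and 20.9 ± 1.96 CPM per kb for LOXL1. SERPINH1, the collagen chaperone HSP47, stood at 682 ± 40 CPM, the lysyl hydroxylase PLOD2 at 371 ± 29.5 CPM and the prolyl hydroxylase P4HA1 at 196 ± 13.7 CPM. Among 33 proteases and inhibitors the metalloprotease inhibitor TIMP2 was among the highest per kb (145 ± 9.68 CPM per kb). Several secreted proteases were lower per kb than TIMP2: PLAT (tPA) stood at 56.0, 83.5 and 62.6 CPM (10.2 CPM per kb), PLAU (uPA) at 14.5, 16.9 and 16.6 CPM (5.43 CPM per kb) and MMP2 at 48.3, 59.8 and 54.9 CPM (11 CPM per kb). The membrane-bound MMP15 (61.2 ± 3.14 CPM per kb) and MMP14 (58.3 ± 6.43 CPM per kb) were the highest metalloproteases of the MMP family and overlapped between libraries. The gelatinase MMP9 stood at 0.127, 0.132 and 0.164 CPM, and MMP7, MMP10 and MMP13 were not detected. The MMP genes at 10 CPM or more were thus the membrane-bound MMP14, MMP15, MMP16 and MMP24, with MMP2 and MMP19. ADAM9 (535 ± 46.0 CPM), ADAM19 (235 ± 22.8 CPM) and ADAMTS1 (242 ± 18.1 CPM) of the related disintegrin families exceeded 100 CPM.

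Integrins, the receptors for this matrix, were led by ITGB1 (β1), at 778, 959 and 959 CPM (149.6 ± 17.4 CPM per kb). Of 27 integrin genes 12 reached 10 CPM. ITGA5 (α5), which with β1 forms the fibronectin receptor, stood at 70 ± 7.38 CPM per kb and ITGA3 (α3), which with β1 binds laminin, at 46.7 ± 4.51 CPM per kb, so that ITGB1 was 2.14 ± 0.0358 times ITGA5. ITGB5 (24.7 ± 1.23 CPM per kb) and ITGB4 (24.3 ± 2.98 CPM per kb), the latter a hemidesmosome subunit, overlapped between libraries. ITGAV stood at 131 ± 12.7 CPM and ITGA6, the partner of β4, at 77.3 ± 8.55 CPM. ITGB6, an epithelial subunit, had no count, and the leukocyte subunits ITGB2 (0.305 ± 0.0755 CPM) and ITGAL (0.134 ± 0.0423 CPM) were under 0.5 CPM. Of 29 other surface glycoproteins 27 reached 10 CPM, led per kb by BSG (CD147, 212 ± 14.6 CPM per kb), the tetraspanins CD151 (92.3 ± 3.33 CPM per kb) and CD63 (86.2 ± 3.30 CPM per kb), and NECTIN2 (83.0 ± 5.81 CPM per kb). CD44, the hyaluronan receptor (419.7 ± 34.8 CPM), the neural adhesion molecule L1CAM (263 ± 29.6 CPM), ICAM1 (148 ± 10.2 CPM), VCAM1 (136 ± 16.9 CPM) and NT5E (CD73, 140.3 ± 9.71 CPM) exceeded 100 CPM, and the stem cell marker PROM1 (CD133) had no count.

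Of 42 lineage transcription factors 18 reached 10 CPM and 11 were not detected, shares near those of all protein-coding genes, and their median was 3.41 CPM. The highest members were factors of mesoderm lineages. GATA6, a factor of mesoderm and endoderm, was the highest per kb, at 263, 258 and 254 CPM (65.5 ± 1.04 CPM per kb), and GATA4 was not detected. The orphan receptors NR2F1 (43.4 ± 1.40 CPM per kb) and NR2F2 (34.7 ± 0.252 CPM per kb), known as COUP-TFI and COUP-TFII, stood on either side of WT1 (40.4 ± 0.684 CPM per kb). BNC1 (25.5 ± 0.539 CPM per kb), HAND2 (21.4 ± 0.290 CPM per kb) and GATA2 (19.2 ± 0.357 CPM per kb) came next, then MEIS2 (14.4 ± 0.216 CPM per kb), a HOX cofactor, and OSR1 (14.3 ± 0.412 CPM per kb), a factor of the urogenital mesoderm, which overlapped between libraries. TBX18 (57.3 ± 2.95 CPM), BNC2 (95.9 ± 3.77 CPM) and FOXF2 (18.6 ± 0.617 CPM) also exceeded 10 CPM. EMX2, PAX2 and NR5A1, factors of the genital tract, kidney and gonad, and the mesenchymal factor PRRX1 had no count. Within the GATA family GATA6 and GATA2 reached 10 CPM and GATA3 stood at 0.0727, 0.153 and 0.164 CPM.

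**Figure D3:**
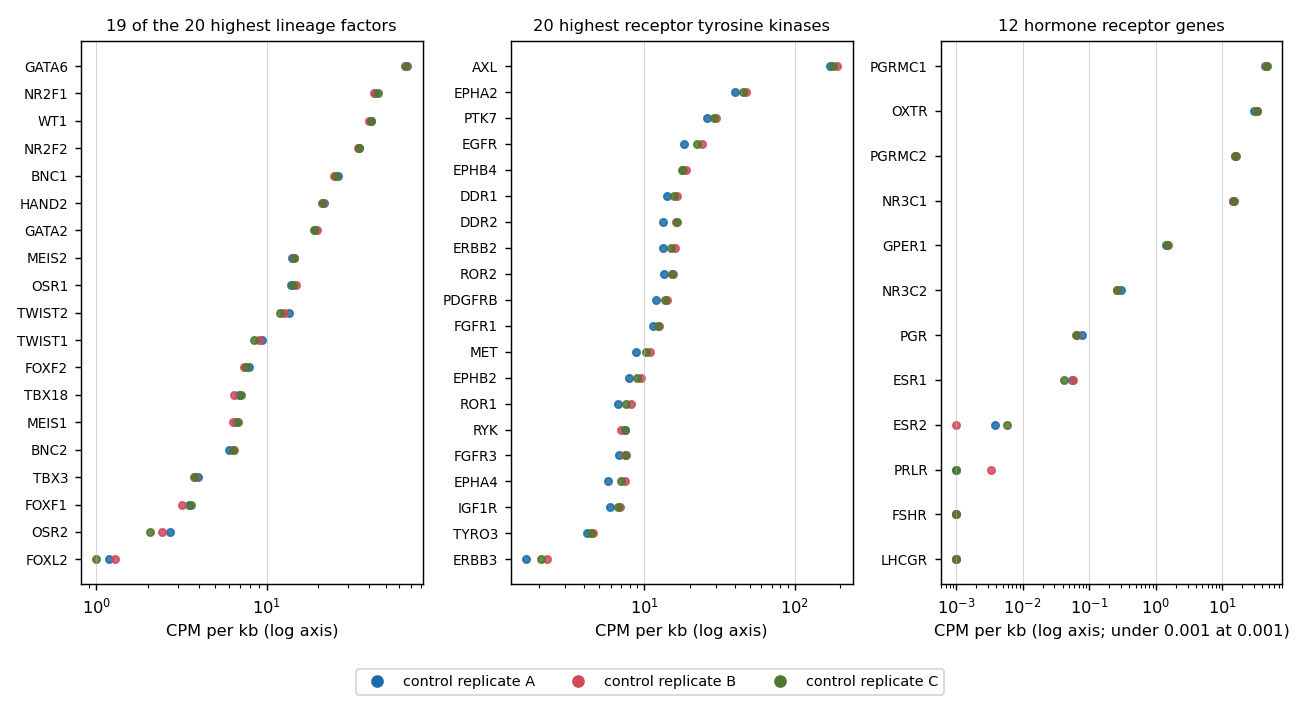
Level of 19 of the 20 highest lineage transcription factors, the 20 highest receptor tyrosine kinases and 12 of 13 hormone receptor genes (CPM per kb of exon, log axes), 1 point for each control library; values under 0.001 are drawn at 0.001. The libraries lie close together from GATA6 (65.5) and AXL (179) downwards, while PGR and ESR1 lie under 0.1.

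HOX genes, which record position along the body axis, came almost entirely from the A and B clusters. All 11 HOXA genes reached 1 CPM and 8 reached 10 CPM, with a summed level of 433 ± 17.6 CPM. Of 10 HOXB genes 8 reached 1 CPM and 6 reached 10 CPM (197 ± 2.71 CPM in all). None of the 9 HOXC and 9 HOXD genes reached 10 CPM, with sums of 26.6 ± 0.885 and 8.71 ± 0.642 CPM. HOXA5 was the highest per kb, at 111, 102 and 113 CPM (63.6 ± 3.26 CPM per kb). HOXA10 (24.4 ± 0.799 CPM per kb), HOXA9 (24.2 ± 1.91 CPM per kb) and HOXA6 (21.8 ± 1.83 CPM per kb) overlapped between libraries, and HOXA11 stood at 13.8 ± 1.09 CPM per kb. In the uterus HOXA10 and HOXA11 pattern the endometrium, and HOXA13 patterns the cervix and vagina; here HOXA13 stood at 3.62, 2.83 and 2.7 CPM (0.599 ± 0.0974 CPM per kb). HOXB2 (17.2 ± 0.371 CPM per kb), HOXB7 (16 ± 1.58 CPM per kb) and HOXB9 (14.4 ± 0.197 CPM per kb) led their cluster, and HOXB13 stood at 0.0657 ± 0.0412 CPM. Without regard to strand HOXA10 stood at 56.3 CPM in place of 90.5, HOXA6 at 18.4 in place of 28.1 and HOXA7 at 6.90 in place of 35.3. HOXC5, HOXD3 and HOXD4 share over 50% of their exon bases with other genes on the same strand, so their counts are uncertain.

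**Figure D4:**
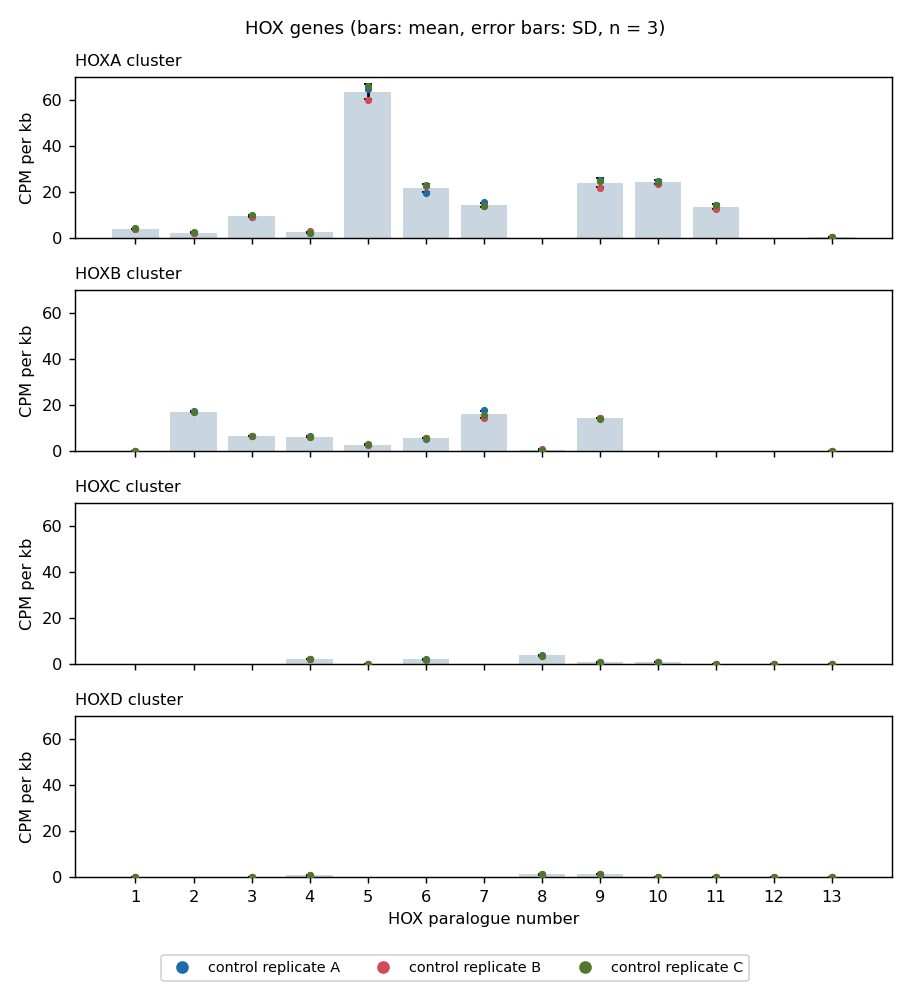
Level of each HOX gene (CPM per kb of exon) by cluster and paralogue number, with bars for the mean, error bars for the SD (n = 3) and 1 point for each control library. Bars reach 63.6 for HOXA5 and 17.2 for HOXB2, whereas HOXC8 (3.86) is the highest of the C cluster and HOXD9 (1.42) of the D cluster.

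Of 16 genes of the EMT list, 7 reached 10 CPM and 5 were not detected, 3 of these being the epithelial factors GRHL2, OVOL1 and OVOL2. TCF3 (E47) stood at 257 ± 6.70 CPM, ZEB1 at 43.6, 46.2 and 50.2 CPM, ZEB2 at 68.5, 68.2 and 68.8 CPM, TWIST2 at 25.5, 23.7 and 22.5 CPM and TWIST1 at 19, 18.3 and 17.0 CPM. SNAI2 (Slug) stood at 13.1, 12.2 and 11.7 CPM and SNAI1 (Snail) at 6.18, 5.59 and 5.11 CPM. Per kb TWIST2 (12.7) and TWIST1 (8.92) lay above ZEB1 (5.39), SNAI2 (3.63) and SNAI1 (3.34), and the last 2 overlapped between libraries. ZEB2, of long exons, stood at 2.73 CPM per kb and FOXC2 at 2.91, whereas GSC, OVOL2 and GRHL2 had no count.

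Early response and Hippo pathway genes were high in all libraries. All 17 AP-1 and early response genes reached 1 CPM and 9 reached 100 CPM: EGR1, a serum-induced zinc finger factor, stood at 749.6, 662 and 700.0 CPM, JUN at 650.4, 681 and 683 CPM, JUND at 394, 385 and 379 CPM and FOS at 206, 205 and 224 CPM. FOSL2 (393 ± 3.93 CPM) and MYC (134 ± 5.21 CPM) were also above 100 CPM, while EGR2 (1.05 ± 0.145 CPM) was near 1 CPM. All 13 genes of the YAP and TEAD list, the transcriptional arm of the Hippo pathway, reached 10 CPM. The coactivator YAP1 stood at 336, 332 and 345 CPM (53.6 ± 1.09 CPM per kb) and its relative WWTR1 (TAZ) at 75.9, 72.4 and 77.6 CPM (8.95 ± 0.315 CPM per kb). TEAD1 (42.0 ± 1.29 CPM per kb) was above TEAD4 (23.4 ± 0.817 CPM per kb), TEAD3 (16.3 ± 0.645 CPM per kb) and TEAD2 (11 ± 0.809 CPM per kb). Of the known targets, CCN1 stood at 1138, 1139 and 1251 CPM, CCN2 at 405, 387 and 421 CPM, AMOTL2 at 364 ± 6.98 CPM and ANKRD1 at 32.0 ± 2.02 CPM.

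Other transcription factor families differed in how many members were present. Of 19 SOX genes SOX12 (141 ± 7.57 CPM), SOX4 (37.0 ± 2.34 CPM) and SOX13 (30.1 ± 0.745 CPM) reached 10 CPM, SOX9, a factor of gland epithelium and cartilage, stood at 2.93 ± 0.424 CPM, and SOX2 and SOX10 were not detected. Of 45 forkhead genes 15 reached 10 CPM, led per kb by the mitotic factor FOXM1 (64.5 ± 1.77 CPM per kb) and the kidney stroma factor FOXD1 (32.7 ± 0.688 CPM per kb). FOXA1, a pioneer factor of hormone-responsive epithelia, stood at 0.218, 0.153 and 0.0730 CPM and FOXO1, a factor of decidualisation, at 4.05, 3.62 and 3.47 CPM. KLF9, a progesterone receptor partner in endometrium (36.6 ± 1.54 CPM per kb), and KLF6 (35.8 ± 2.58 CPM per kb) led 18 KLF genes, of which 11 reached 10 CPM, and overlapped between libraries. T-box genes were low apart from TBX18 and TBX3 (22.8 ± 0.759 CPM), and 8 of 14 were not detected. Among 48 nuclear receptors 20 reached 10 CPM: after NR2F1 and NR2F2 the highest per kb were the oxysterol receptor NR1H2 (30.1 ± 0.967 CPM per kb) and NR2F6 (28.5 ± 0.693 CPM per kb), with the retinoic acid receptor RARG (69.6 ± 1.49 CPM), PPARD (87.8 ± 1.70 CPM) and the immediate early NR4A1 (76.9 ± 5.24 CPM) also present. VDR, the vitamin D receptor, stood at 1.33 ± 0.0951 CPM and PPARG at 4.14 ± 0.486 CPM.

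Receptors of the steroid hormones on which endometriosis depends stood near or under 1 CPM, while the glucocorticoid receptor was well above it. PGR, the progesterone receptor, stood at 1.18, 1.01 and 0.986 CPM with 65, 46 and 54 counts, and ESR1, the oestrogen receptor α, at 0.763, 0.789 and 0.584 CPM with 42, 36 and 32 counts. ESR2 (oestrogen receptor β) and PRLR (prolactin receptor) were not detected, and FSHR and LHCGR had no count. NR3C1, the glucocorticoid receptor, stood at 134, 132 and 137 CPM (14.6 ± 0.232 CPM per kb), and NR3C2, the mineralocorticoid receptor, at 2.02, 1.71 and 1.73 CPM. The membrane-associated PGRMC1 (45.3 ± 1.68 CPM per kb) and PGRMC2 (15.6 ± 0.257 CPM per kb) were present, as was OXTR, the oxytocin receptor of uterine muscle, at 137, 149.7 and 149 CPM (32.2 ± 1.62 CPM per kb). GPER1, a membrane oestrogen receptor, stood at 4.61 ± 0.153 CPM.

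Of 21 genes that make or remove steroids and prostaglandins, 4 reached 10 CPM and 7 were not detected. CYP19A1 (aromatase, which makes oestrogens), HSD17B2 and SULT1E1 (which inactivate them) had no count, and HSD17B1 stood at 0.435 ± 0.181 CPM. STS, steroid sulfatase, stood at 17.3 ± 0.740 CPM, and STAR, which carries cholesterol into mitochondria, at 8.01 ± 0.274 CPM. The inducible prostaglandin E synthase PTGES stood at 32.8, 39.2 and 37.4 CPM (19.2 ± 1.72 CPM per kb), whereas PTGS2 (COX-2), the enzyme before it, stood at 1.54, 1.36 and 1.97 CPM (0.308 ± 0.0596 CPM per kb) and PTGS1 at 0.462 ± 0.0834 CPM. Of the receptors for prostaglandin E2, PTGER2 stood at 1.02 ± 0.177 CPM and PTGER4 at 0.747 ± 0.379 CPM, both at or near 1 CPM.

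Of 51 receptor tyrosine kinase genes, 24 reached 10 CPM and 10 reached 100 CPM. AXL was the highest per kb, above EPHA2 (44.3 ± 3.69 CPM per kb), the WNT co-receptor PTK7 (28.2 ± 2.06 CPM per kb) and EGFR (229, 301 and 279 CPM, 21.5 ± 2.94 CPM per kb), the last of which overlapped between libraries with EPHB4 (18.3 ± 0.547 CPM per kb). The AXL relatives TYRO3 (4.39 ± 0.205 CPM per kb) and MERTK (0.328 ± 0.0457 CPM per kb), which share its ligand, stood lower. The collagen receptors DDR1 (15.5 ± 1.15 CPM per kb) and DDR2 (15.4 ± 1.70 CPM per kb), ERBB2 (14.8 ± 1.31 CPM per kb) and ROR2 (14.7 ± 1.11 CPM per kb) followed, all overlapping between libraries with the next. Of the platelet-derived growth factor receptors, PDGFRB stood at 85.1, 102 and 97.5 CPM (13.3 CPM per kb) and PDGFRA at 2.00, 2.21 and 2.54 CPM (0.231 CPM per kb), with no overlap. FGFR1 stood at 12.1 ± 0.596 CPM per kb and FGFR3 at 7.28 ± 0.434 CPM per kb, against 0.0135 ± 0.00165 CPM per kb for FGFR2, whose epithelial isoform is used in glands. MET, the hepatocyte growth factor receptor, stood at 70.4 ± 7.77 CPM, KIT at 1.33 ± 0.190 CPM, and EPHA3 had no count. Replicate A was the lowest library for EGFR, PDGFRB and AXL alike.

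Receptors of the TGF-β family were present in 10 of 13 cases at 10 CPM or more, with TGFBR2 (15.6 ± 0.933 CPM per kb), TGFBR1 (14.2 ± 0.550 CPM per kb) and BMPR2 (11.4 ± 0.722 CPM per kb) the highest, the first pair overlapping between libraries, while the endothelial ACVRL1 stood at 0.421 ± 0.0495 CPM and BMPR1B was not detected. Of 18 Notch and Wnt receptors 11 reached 10 CPM. NOTCH2 stood at 493, 668 and 601 CPM (34.9 ± 5.26 CPM per kb), above NOTCH1 (14.4 ± 1.79 CPM per kb) and NOTCH3 (2.33 ± 0.198 CPM per kb), and FZD2 (42.9 ± 3.23 CPM per kb) was the highest frizzled gene. The stem cell receptor LGR5 stood at 0.0657 ± 0.0191 CPM, whereas LGR4 stood at 97.9 ± 5.29 CPM. Cytokine receptors were led by the tumour necrosis factor family members TNFRSF12A (86.4 ± 3.68 CPM per kb) and TNFRSF1A (60.9 ± 3.95 CPM per kb) and by IL6ST (gp130, 46.6 ± 3.49 CPM per kb), with 19 of 28 at 10 CPM or more. The partners of gp130 for oncostatin M and LIF, OSMR (164 ± 14.4 CPM) and LIFR (140.1 ± 10.1 CPM), were above 100 CPM, and that for interleukin 6, IL6R, stood at 3.86 ± 0.244 CPM. Among 25 G protein-coupled receptors, GPRC5A, an orphan receptor induced by retinoic acid, was the highest per kb (605, 756 and 720.4 CPM, 82.2 ± 9.37 CPM per kb), then OXTR and the bradykinin receptor BDKRB1 (26.2 ± 0.811 CPM per kb). F2R, the thrombin receptor (47.8 ± 3.74 CPM), and S1PR1, a sphingosine phosphate receptor (44.2 ± 2.00 CPM), exceeded 10 CPM, and the chemokine receptor CXCR4 stood at 0.0390 ± 0.0368 CPM.

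FSTL1 (2541, 2892 and 2979 CPM, 321 ± 26.6 CPM per kb), a follistatin-like glycoprotein, DKK1 (132 ± 6.32 CPM per kb) and SFRP1 (110.5 ± 13.3 CPM per kb), both WNT antagonists, were the highest per kb of 65 secreted signals found, of which 33 reached 10 CPM, a share near that of all protein-coding genes. The activin antagonist FST (follistatin) stood at 4.01 ± 0.266 CPM, and the BMP antagonists NOG (noggin) and CHRD (chordin) at 4.84 ± 0.253 CPM and 3.75 ± 0.344 CPM. Adrenomedullin (ADM, 170.2 ± 11.3 CPM), a vasodilator peptide, FSTL3 (163 ± 4.09 CPM) and DKK3 (264 ± 17.7 CPM) followed SFRP1 per kb. TGFB1 stood at 106, 109 and 105 CPM (32.9 ± 0.710 CPM per kb), TGFB2 at 9.19 ± 0.656 CPM per kb and TGFB3 at 0.771 ± 0.0774 CPM per kb. Angiogenic VEGFA stood at 70.2 ± 2.05 CPM and VEGFC at 35.1 ± 0.495 CPM. The cytokine LIF (45 ± 3.74 CPM) and IL11 (23.4 ± 1.45 CPM) were above the inflammatory IL6 (1.13 ± 0.200 CPM) and IL1B (0.587 ± 0.167 CPM) per kb, at 11.3 and 8.76 against 0.545 and 0.190 CPM per kb. CXCL8 stood at 13.6 ± 1.76 CPM, and TNF and CSF2 had no count. Of the other chemokines, CXCL2 (20.6 ± 1.03 CPM) and CXCL12 (12.1 ± 0.374 CPM) exceeded 10 CPM and CCL2 stood at 2.90 ± 0.298 CPM. Of 7 binding proteins of insulin-like growth factors IGFBP4 was the highest (216 ± 3.57 CPM per kb), then IGFBP6 (60.9 ± 3.17 CPM per kb), and IGF1 was not detected.

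The actin cytoskeleton list was abundant in nearly all of its members. All 27 actin cytoskeleton genes reached 1 CPM and 24 reached 100 CPM, summing to 30403 ± 542 CPM. PFN1 (profilin, 579.5 ± 30 CPM per kb), TAGLN2 (377 ± 20 CPM per kb), MYH9 (320.2 ± 18.1 CPM per kb) and FLNA (278 ± 18.8 CPM per kb) followed the actins, while the smooth muscle forms ACTA2 (2.38, 1.93 and 2.34 CPM) and CNN1 (5.42 ± 0.666 CPM) were low and TAGLN stood at 66.3 ± 7.21 CPM, or 33.3 without regard to strand. Of 7 caveola genes 5 reached 10 CPM. CAVIN1, a coat protein of caveolae, stood at 2328, 2332 and 2200.0 CPM (597 ± 19.6 CPM per kb), against 54.3 ± 0.707 CPM per kb for caveolin 1 (CAV1) and 5.84 ± 0.492 CPM per kb for CAV2, and the muscle form CAV3 stood at 0.0424 ± 0.0584 CPM.

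Proliferation genes were high: 13 of 18 reached 100 CPM. MKI67 stood at 887, 1119 and 1030.2 CPM, TOP2A at 665, 666 and 699.9 CPM, MYBL2 at 628, 616 and 598 CPM and PCNA at 285, 257 and 268 CPM. Of the D cyclins, which start the cell cycle, CCND3 stood at 88.3 ± 3.90 CPM (15.2 CPM per kb), CCND1 at 25.9 ± 0.877 CPM (5.36 CPM per kb), and CCND2 was not detected. All 11 checkpoint genes reached 10 CPM. CDKN2A, whose locus encodes the inhibitors p16 and ARF, stood at 253, 234 and 230.2 CPM, CDKN1A (p21) at 121, 112 and 115 CPM and RB1 at 154, 140.3 and 154 CPM. Genes often mutated in endometriosis epithelium stood above 10 CPM, among them CTNNB1 (355 ± 9.74 CPM), PPP2R1A (349.9 ± 14.9 CPM), ARID1A (286 ± 17.1 CPM), AKT1 (175 ± 7.71 CPM), PIK3CA (49.3 ± 3.19 CPM) and FBXW7 (35.8 ± 1.67 CPM). A level says nothing of a mutation.

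The 3 libraries differed little from each other, and by more than counting noise. For 13491 genes whose mean reached 1 CPM, the median coefficient of variation (CV, the SD as a share of the mean) was 5.46%, where counting alone gives 2.61%. It was 9.56% at 1 to 10 CPM, 4.74% at 10 to 100 CPM and 4.19% at 100 CPM or more, beside 7.85%, 2.34% and 1.07% from counting. These counting values are the SD expected for a gene. A median CV over 3 libraries runs somewhat below such an SD, so the share of counting in the spread is smaller than they show. No pair of libraries differed by over 1.5-fold in any of the 9600 genes whose mean reached 10 CPM. The common biological coefficient of variation, fitted across genes by edgeR, was 5.63%, and it was 4.24% without replicate A, 5.60% without B and 6.70% without C. A chi-square statistic of counts came to 28.4 per gene between A and B, 19.6 between A and C and 9.29 between B and C, where 1 would be counting noise alone, so no 2 libraries were the same library deposited again. Protein-coding genes with the largest CV at 10 CPM or more included the plasminogen activator gene PLAT (56.0, 83.5 and 62.6 CPM, CV 21.3%), the giant scaffold AHNAK (2010.3, 2964 and 2453 CPM, CV 19.3%), PTX3, the matrix genes TNC (59.9, 86.9 and 74.4 CPM), TNXB and FBN1 (194, 277 and 245 CPM), MMP19, ADAMTS7 and PCDHGB5. These 9 genes were lowest in A and highest in B. Of the 100 protein-coding genes of largest CV, 68 were lowest in A and 60 highest in B.

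The spread had a direction that went with transcript length and with some gene lists, the matrix lists among them. Genes of the matrix glycoprotein, collagen, laminin, integrin and proteoglycan lists with at least 10 CPM were lowest in replicate A in 38 of 39 cases where the longest annotated transcript was 4 to 8 kb, and in 15 of 15 cases over 8 kb. Among other protein-coding genes A was the lowest library for 37.7% and 61.3% in the same length classes. The median log2 ratio of A to the mean of the 3 libraries was −0.11 for 18 matrix genes up to 4 kb, −0.19 at 4 to 8 kb and −0.24 over 8 kb. For other genes it was 0.042, −0.0021 and −0.043. Over all protein-coding genes it ran from 0.089 up to 1 kb, where 90.8% of genes were highest in A, to −0.045 over 8 kb. The other genes include receptor lists, some of which were also lowest in A by summed level. Notch and Wnt receptors stood at 1066, 1341 and 1247 CPM in A, B and C, and receptor tyrosine kinases at 2914, 3382 and 3224 CPM. Some lists went the other way, such as the keratins, highest in A at 5488, 5316 and 5049 CPM. These sums are not split by transcript length. The parts of RNA quality, transcript length and cell state in this difference were not tested. The summed level of the 42 lineage factors was 1859, 1839 and 1855 CPM in the same libraries, with NR2F2 at 225, 222 and 224 CPM. In the EMT list ZEB2 (68.5, 68.2 and 68.8 CPM) differed little, whereas ZEB1 was lowest in A and SNAI1 highest in A.

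**Figure D5:**
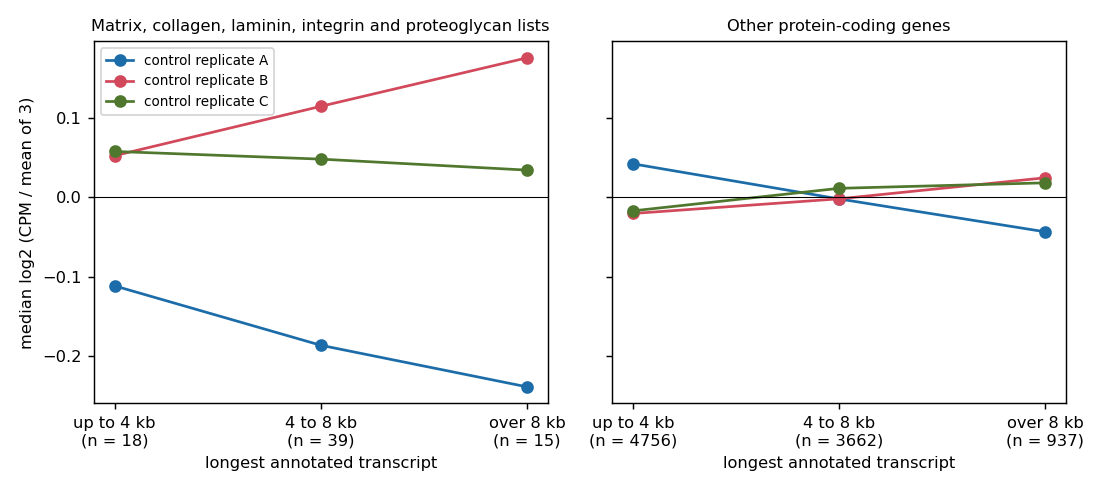
Median log2 ratio of each control library to the mean of the 3 libraries (y axis) against the length of the longest annotated transcript (x axis), for matrix, collagen, laminin, integrin and proteoglycan genes (left) and other protein-coding genes (right). Replicate A lies at −0.11 to −0.24 for the matrix genes and within 0.05 of 0 for the others. The others include some receptor lists whose summed level was also lowest in A.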

How the data were processed

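Total RNA of 6 samples was sequenced as 50 bp pairs after depletion of ribosomal RNA and preparation with a directional kit, per the labels' protocols, and the 3 control siRNA libraries were used. The submitters' processing notes name STAR 2.7.10b, R 4.2.1 and the build GRCh38 (hg38). The counts deposited by the authors are whole numbers per gene without normalization; no annotation release or mapper option is given in the sources used here. Each table has columns without regard to strand and for each strand, of which that for the reverse strand was used because the kit is directional. The 4 rows naming no gene were left out: unmapped reads were 12.3% ± 0.351 of all fragments, and reads outside exons and over several genes were 9.18% ± 0.864 and 7.49% ± 0.243 of mapped ones. Reads mapping to several places were 0, so multicopy genes may be undercounted.

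CPM was the count over the library total. CPM per kb divided it by the merged exon length in GENCODE 29, where 58251 identifiers were found. The tables may come from a different release. The floor was 3 counts in each library. Neighbours in an order were called overlapping where the ranges of the 3 libraries overlapped. Exon overlap was checked: 865 of the 998 list members share none with another gene on their strand and 27 share over 20%. With 1 group no test between groups was run. The biological coefficient of variation came from edgeR 4.0.16 (estimateDisp, intercept only, R 4.3.3), tested on simulated data, and the rest was computed in Python 3.11.15. Promoter windows came from RefSeq, GRCh38.p14. Named were the 20 genes of highest CPM, the 15 protein-coding genes of highest CPM per kb, members of 53 gene lists, by name or by count, and the 10 genes of largest CV, except that a few are not reported here. For lists over 20 members the rule took the 10 highest per kb and the defining members, and others were named after their values were seen. Members and lists were chosen with earlier results of these data known. Alternatives were TMM and DESeq2 1.42.0 size factors, other library totals, thresholds and filters, the column without strand, another gene length and leaving out each library.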

Additional observations from a re-analysis of the deposited data

How the results depend on the processing

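The number of genes at 1 CPM in every library lay between 12055 (threshold 2 CPM) and 14483 (threshold 0.5 CPM). The share of counts in the 50 most abundant genes was 14.7% without mitochondrial genes and 11.05% with protein-coding genes only. The median CV was 4.61% at 10 CPM or more and 10.4% with no filter other than a count in each library. Leaving out 1 library each gave 3.75% to 5.17%, though a median CV over fewer libraries runs lower whichever library is left out. The common biological coefficient of variation lay between 4.24% and 6.70% when 1 library was left out, lowest without replicate A. Of 831 named genes at any level, none moved beyond its SD with TMM or with DESeq2 size factors. Leaving out 1 library moved 14 to 17 of them by over 1.5 times, all under 10 CPM. A library total that leaves out mitochondrial and the 20 most abundant genes is smaller, so it must raise every level. The median ratio was 1.13 over all 831, which exceeded the SD for 588 of them. The column without regard to strand moved 368 beyond their SD and 62 by over 1.5 times, 21 of these at 10 CPM or more. VIM was then 633 CPM in place of 2232, MALAT1 28.8 in place of 2085 and GAPDH 2299 in place of 4411. The 10 highest members per kb were shared in 8 to 10 cases in each of 41 lists when the longest transcript gave the length, 9 or 10 in 40 of them. Without regard to strand the median CV was 5.63%, an alternative chosen after seeing the data. Depth limits the genes under 10 CPM: at 1 to 10 CPM the median CV was 9.56%, beside an SD of 7.85% expected from counting. No paired analysis was possible because only 1 group was described and no test compared groups.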

Other observations

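Long non-coding RNAs were led per kb by MALAT1, a nuclear RNA (1889.8, 1977 and 2389.7 CPM, 236 ± 30.2 CPM per kb, but a mean of 28.8 CPM without regard to strand), and by NORAD (37.1 ± 0.277 CPM per kb), MIR31HG (26.4 ± 1.35 CPM per kb) and NEAT1 (15.5 ± 2.16 CPM per kb), the scaffold of paraspeckles. MALAT1 and NEAT1 (326, 322 and 409 CPM) were both highest in replicate C, whereas NORAD stood at 197, 199.7 and 197 CPM. HOTAIR stood at 0.436, 0.219 and 0.256 CPM, beside the low HOXC genes, and HOTTIP at 0.0559 ± 0.0294 CPM. H19 stood at 3.21 ± 0.372 CPM and MEG3 at 36.6 ± 3.76 CPM. The 13 mitochondrial mRNAs summed to 14619 ± 1483 CPM, highest in A and lowest in B for MT-CO1 (3167, 2635 and 3007 CPM), and MT-ATP8 and MT-ND4L share bases with their neighbours. RN7SL2, RN7SK and RPPH1, abundant RNAs in most cells, are listed at 0 in every library. RN7SK, RPPH1, RN7SL1 and RMRP share all their exon bases with another annotated gene, so the small RNAs of these tables are uncertain.

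Antigen presentation and interferon genes were present: 12 of 15 reached 10 CPM. HLA-B (214 ± 19.9 CPM), HLA-C (211 ± 20.7 CPM) and B2M (369 ± 13.9 CPM) of class I exceeded 100 CPM, though HLA genes resemble each other and their split is uncertain. Of class II, CD74 stood at 3.01 ± 0.600 CPM, its activator CIITA at 0.677 ± 0.158 CPM, and HLA-DRA was not detected. The interferon-induced IFIT1 and ISG15 stood at 33.9 ± 1.98 CPM and 26.7 ± 2.38 CPM. The immune checkpoint ligand gene CD274 (PD-L1) stood at 4.03, 4.06 and 4.33 CPM, or 1.01 CPM per kb, against 31.1 for PVR and 13 for CD276.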
